A study of Mus musculus with 13 samples.

Results

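Marker genes of macrophages and lymphocytes were followed in mouse liver through 37 genes, of 29977 genes and unnamed transcripts on the array. A gene was a member when a probe in the scanner files carried its name, with Adgre1 written there under its older name Emr1. All 37 were found, on 52 probes, and 12 of them had more than 1 probe. Where a gene had several, the probe of highest mean was used. Membership rests on gene names and no measured value, while the choice among the probes of a gene used their mean signal. In 36 members that probe exceeded the scanner program's limit for a signal well above background throughout 1 group or more, and these were tested among 19516 genes.

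The livers came from female C57BL6 mice aged 12 weeks. In 5 samples the mice had the diet labelled HFHS with vehicle, in 5 the standard diet (ST) with a mixture of 4 pollutants, and in 3 the standard diet with vehicle. The composition of the diet and the names of the pollutants are not given in the sources used here, and since the series text does not plainly state which diet carried the mixture, the sample labels were followed. The labels call the samples biological replicates without tying them to named animals or cages, so p-values measure the spread between these samples.

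Kupffer cells are the resident macrophages of the liver. They line the sinusoids, take up particles, lipoproteins and old red cells from the blood, and keep their own set of receptors, among them Clec4f, Vsig4, Marco and Timd4. Monocytes enter from the blood when chemokines such as Ccl2 are released, and differ from resident cells in their surface proteins. The liver also holds many NK and T cells and fewer B cells and neutrophils, while dendritic cells and macrophages present antigen on MHC class II molecules. In RNA from whole liver, fewer cells of a type and less RNA per cell cannot be told apart.

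The signal of each array was set relative to its own 75th percentile on the log2 scale, so 0 means the level of that percentile and a difference of 1 means a factor of 2 between arrays for the same probe. This 75th percentile was 782 to 1354 intensity units, and 62.8% to 69.5% of the probes were well above background. Levels are not compared between genes, because each rests on a different probe. One model in limma was fitted to all 13 arrays and p-values were adjusted with the Benjamini-Hochberg method over the 19516 genes. A gene is called at an adjusted p under 0.05. Pancreatic acinar markers stood apart in 3 HFHS livers: the mean log2 level of the 10 of 11 markers measured was 4.70, 3.48 and 6.88 in replicates 3, 4 and 5 and -2.89 and -3.07 in replicates 1 and 2, against -3.38 to -1.79 in the pollutant livers and -3.20 to -2.68 in ST vehicle livers. Hepatocyte markers averaged 6.86 to 7.27 in HFHS livers, 7.11 to 7.30 in pollutant livers and 7.28 to 7.41 in ST vehicle livers, with none of the 8 called in any comparison.

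Of the immune cell markers, a single gene passed the test in a single comparison. In HFHS against ST vehicle livers none of the 36 tested members was called, beside 0.687% of all genes. In pollutant against ST vehicle livers none was called, beside 0.984% of all genes. In HFHS against pollutant livers 1 member was called, Itgam, beside 3.87% of all genes. These background counts depend on single livers. The 134 genes called in HFHS against ST vehicle livers became 23 to 80 when any of the ST vehicle livers, HFHS replicate 2 or HFHS replicate 5 was left out. The 192 called in pollutant against ST vehicle livers became 39 to 122 when any of the ST vehicle livers, HFHS replicate 2 or any pollutant liver but replicate 2 was left out. The 756 called in HFHS against pollutant livers became 349 to 500 when 1 of HFHS replicates 1 to 3 or of pollutant replicates 3 to 5 was left out. When the arrays of slide 1 were dropped, 1, 3 and 1 genes were called. The median log2 fold change of the members was -0.08, -0.01 and -0.01 in these comparisons, and that of all genes -0.02, -0.01 and -0.00. At an unadjusted p under 0.05 stood 6 of 36 members (16.7%) in HFHS against ST vehicle livers, beside 12.1% of all genes, 1 of 36 (2.78%) in pollutant against ST vehicle livers, beside 12.1%, and 5 of 36 (13.9%) in HFHS against pollutant livers, beside 18.3%. Groups did not overlap for 3 members (8.33%) in HFHS against ST vehicle livers, beside 9.15% of all genes, for 1 member (2.78%) in pollutant against ST vehicle livers, beside 8.32%, and for 1 member (2.78%) in HFHS against pollutant livers, beside 6.93%. These shares of members are near or below the shares of all genes, apart from the unadjusted share in HFHS against ST vehicle livers, which is 16.7% against 12.1%.

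**Figure D1:**
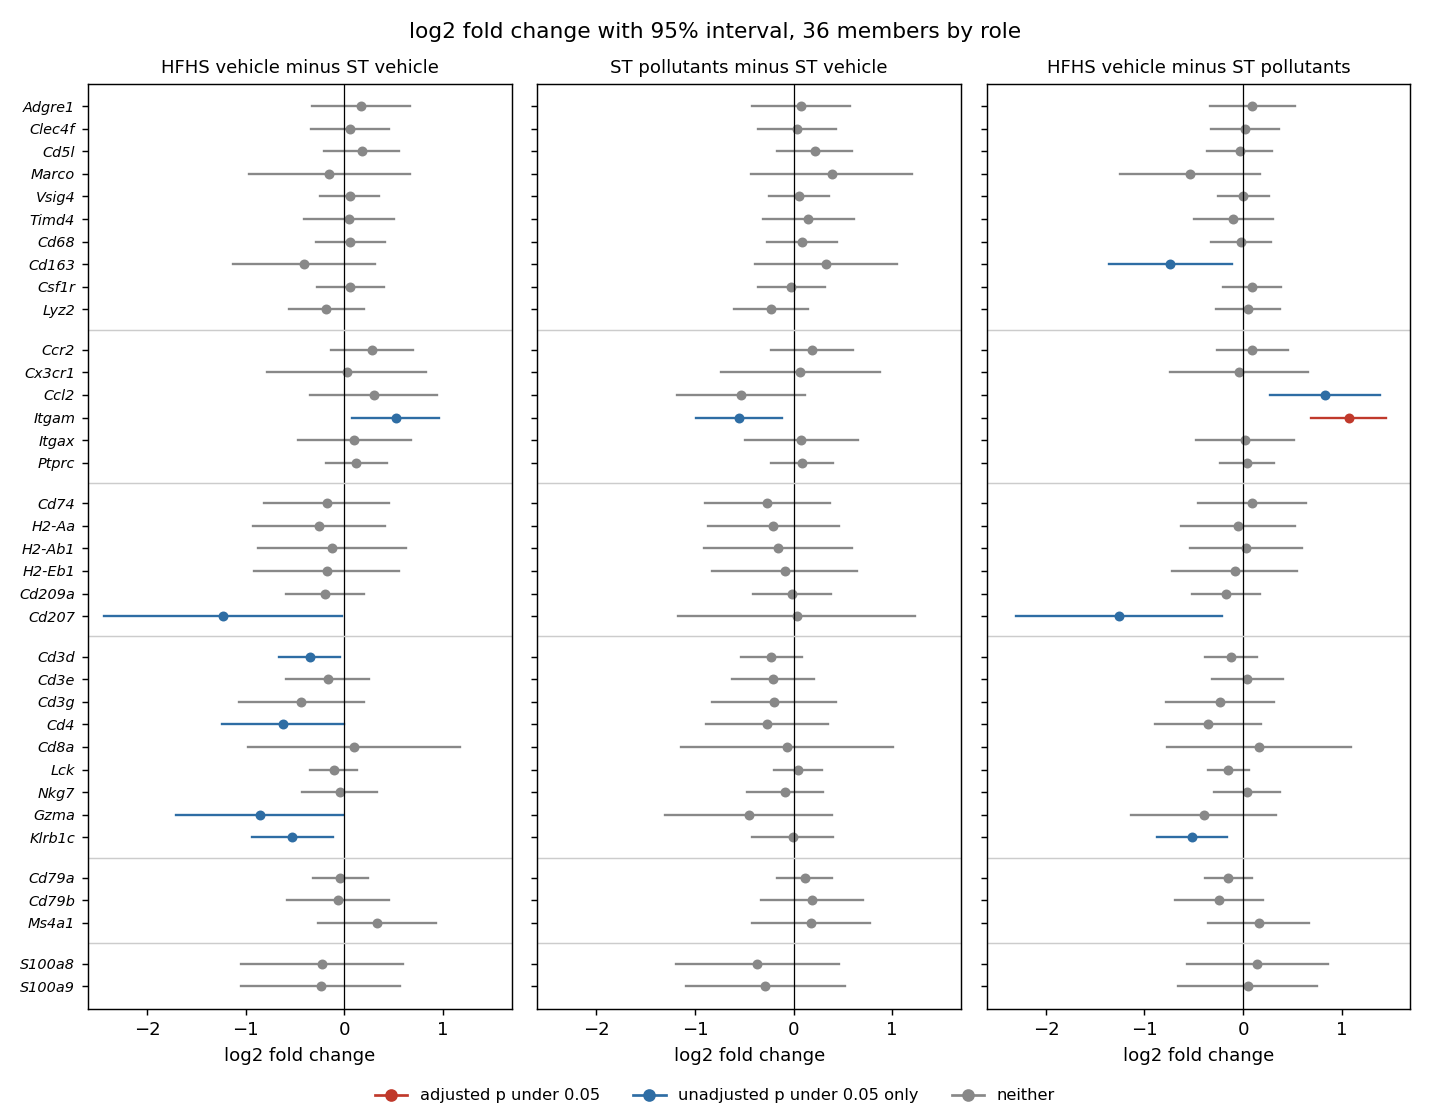
log2 fold change (x axis, with its 95% interval from the limma model) of the 36 tested members (y axis, grouped by role) in the 3 comparisons. Red marks an adjusted p under 0.05, blue an unadjusted p under 0.05 only and grey neither: the single red point is Itgam in HFHS against pollutant livers, at 1.07.

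The call for Itgam rested on 1 of its 3 probes. Itgam encodes CD11b, the alpha chain of complement receptor 3 on monocytes, neutrophils and many macrophages. The chosen probe had log2 signals of 2.53, 2.54, 2.19, 2.06 and 2.58 in HFHS livers and of 0.87, 1.22, 1.73, 1.43 and 1.29 in pollutant livers, against 1.69, 1.63 and 2.25 in ST vehicle livers. Every HFHS liver lay above every pollutant liver, and the ST vehicle livers overlapped both ranges. The log2 difference of HFHS minus pollutant livers was 1.07 ± 0.17 (SE), with a 95% interval of 0.69 to 1.45 and adjusted p = 0.00671 in limma. Within the 5 slides it was 1.66, 1.32, 0.46, 0.64 and 1.28. The call was lost with normexp background correction (adjusted p = 0.0615) and without the arrays of slide 1 (adjusted p = 0.0703). The same probe gave 0.52 ± 0.20 in HFHS minus ST vehicle livers (adjusted p = 0.301) and -0.55 ± 0.20 in pollutant minus ST vehicle livers (adjusted p = 0.265). Both values rest on the same ST vehicle livers.

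The probes differ in sequence. The first 30 of their 60 bases are shown because the called probe starts with a dinucleotide repeat, in capitals, that the others lack. They are given as in the scanner files, 5′ to 3′, with positions on mouse build mm9, plus strand; exon and UTR annotation of that build was not used here.
Itgam, called probe, chr7:135261755-135261814: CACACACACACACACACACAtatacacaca
Itgam, second probe, chr7:135212140-135212199: tgttaaccagacaggtgccctctaccagtg
Itgam, last probe, chr7:135260275-135260334: aagttcacaatcctgtaccactcattgtgg
The second probe gave a log2 difference of HFHS minus pollutant livers of 0.24 ± 0.33 (unadjusted p = 0.478), and the last gave 0.05 ± 0.27 (unadjusted p = 0.870). Neither was called. Over the arrays, as deviations from the group means, the called probe correlated with the other Itgam probes at 0.14 and -0.10, given as a description.

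Probes of other genes that carry the same repeat moved as the called Itgam probe did. The run CACACACACACACACA, of 8 CA units, was searched on the strand of the probe and occurs in 32 of the 39429 probes (0.0812%), of which 31 were kept. Leaving out the Itgam probe, 29 of 30 such probes were called in HFHS against pollutant livers, all 29 higher, with a median log2 difference of 1.12. For comparison, 857 of all 25030 kept probes were called. The opposite-strand form GTGTGTGTGTGTGTGT occurs in 69 probes (0.175%), all 69 were called lower, and their median was -1.06. In HFHS minus ST vehicle livers the medians of the CA and GT probes were 0.53 and -0.55, and in pollutant minus ST vehicle livers -0.57 and 0.51, with no probe of either kind called. When probes with either run were left out before a probe was chosen, a setting chosen after seeing the data, Itgam had a log2 difference of 0.24 (adjusted p = 0.830) and no member was called in HFHS against pollutant livers. The number of all genes called in that comparison was then 537 of 19458 tested, against 756 of 19516. The adjustment spans all genes tested, so this drop is not a count of genes read by CA or GT probes. No other member's chosen probe holds either run.

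**Figure D2:**
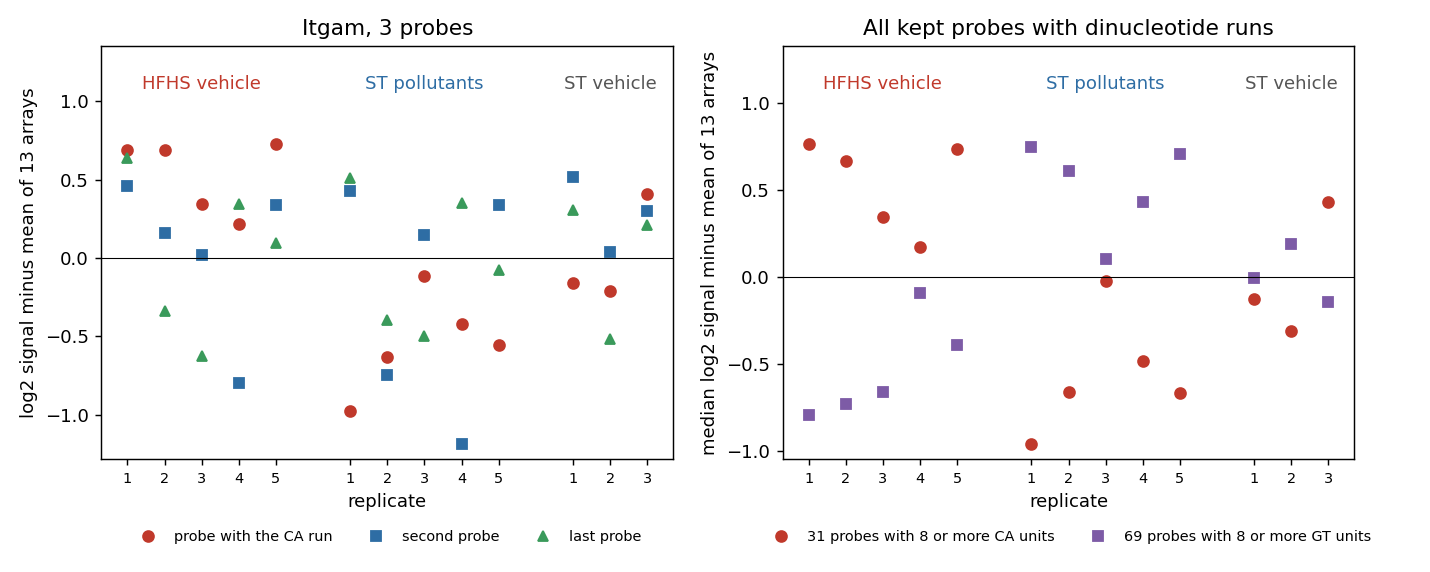
Left, log2 signal of the 3 Itgam probes minus each probe's mean over 13 arrays (y axis) by replicate (x axis) in HFHS, pollutant and ST vehicle livers. Right, the same quantity as a median over the 31 probes with CA runs and the 69 with GT runs: the CA medians are 0.18 to 0.77 in HFHS livers and -0.96 to -0.02 in pollutant livers, and the called Itgam probe follows them.

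None of the 10 resident macrophage genes was called in any comparison. Their median log2 fold change was 0.06 in HFHS minus ST vehicle livers, 0.08 in pollutant minus ST vehicle livers and -0.01 in HFHS minus pollutant livers. Adgre1, which encodes the macrophage receptor F4/80, had log2 signals of 1.63, 1.51, 1.35, 1.18 and 0.99 in HFHS livers and of 1.85, 1.16, 1.29, 0.57 and 1.32 in pollutant livers, against 1.16, 1.03 and 1.29 in ST vehicle livers. The groups overlap, and the pollutant livers hold both the highest and the lowest value. Clec4f, a lectin of mouse Kupffer cells, averaged 3.97 ± 0.18 in HFHS livers and 3.95 ± 0.37 in pollutant livers, against 3.92 ± 0.10 in ST vehicle livers (SD, n = 5, 5 and 3). Its 95% intervals were -0.34 to 0.46 for HFHS minus ST vehicle and -0.36 to 0.43 for pollutants minus ST vehicle.

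The complement receptor gene Vsig4 had the narrowest interval of the resident set in the diet comparison, -0.24 to 0.36 around 0.06. Csf1r, the receptor for the growth factor that keeps macrophages alive, differed by 0.06 ± 0.16 in HFHS minus ST vehicle livers and -0.02 ± 0.16 in pollutant minus ST vehicle livers. Cd5l, a secreted protein of macrophages, differed by 0.18 ± 0.18 and 0.21 ± 0.18, Timd4, a receptor for dying cells, by 0.05 ± 0.21 and 0.15 ± 0.21, and the lysosomal Cd68 by 0.06 ± 0.16 and 0.08 ± 0.16. Lyz2, lysozyme, was the only resident gene besides Cd163 and Marco with a negative value for the diet, at -0.18 ± 0.17, and it had -0.23 ± 0.17 for the mixture. These intervals all cover 0.

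Marco and Cd163 varied most within this set. Marco, a scavenger receptor, had log2 signals of 3.26, 2.83, 2.40, 2.87 and 2.74 in HFHS livers and of 3.95, 2.92, 3.80, 2.40 and 3.73 in pollutant livers, against 2.97, 2.27 and 3.66 in ST vehicle livers. Pollutant replicates 1, 3 and 5 and ST vehicle replicate 3 were high, and the groups overlap (HFHS minus pollutants -0.54 ± 0.33, adjusted p = 0.437). Cd163, the receptor that clears haemoglobin, had -4.45, -3.83, -3.84, -4.93 and -5.63 in HFHS livers and -3.91, -3.96, -3.66, -3.64 and -3.82 in pollutant livers, against -4.13, -4.25 and -4.01 in ST vehicle livers. It was well above background in 3 of 5 HFHS livers and in all others. HFHS replicates 4 and 5 were the lowest of all 13, and the difference from pollutant livers was -0.74 ± 0.29 (unadjusted p = 0.0250, adjusted p = 0.190), while normexp background correction gave 0.25 and leaving out HFHS replicate 5 gave -0.46. Every pollutant liver lay above every ST vehicle liver for Cd163, with a log2 difference of 0.33 ± 0.33 and adjusted p = 0.810.

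In HFHS minus ST vehicle livers 8872 of all 19516 genes had a positive log2 fold change. The 6 recruitment and myeloid surface genes all did, with a median of 0.21 and none called. That count includes Itgam through its CA probe: without CA or GT probes Itgam gave -0.25, 5 of 6 were positive and the median was 0.11. Without ST vehicle replicate 2, 4 of 6 were positive with a median of 0.12. Cx3cr1, at 0.03 ± 0.37, gave -0.07 with slide as a block. Ccl2, the chemokine that draws monocytes, had log2 signals of -0.85, -1.07, -1.76, -1.36 and -0.99 in HFHS livers and of -1.76, -2.24, -1.76, -2.84 and -1.60 in pollutant livers, against -1.58, -1.90 and -1.04 in ST vehicle livers. Of the HFHS livers 4 lay above every pollutant liver, and replicate 3 did not. The log2 difference of HFHS minus pollutant livers was 0.83 ± 0.26, with a 95% interval of 0.27 to 1.39 and adjusted p = 0.100, so it did not pass the threshold. Against ST vehicle livers Ccl2 gave 0.30 ± 0.30 in HFHS livers (adjusted p = 0.846) and -0.53 ± 0.30 in pollutant livers (adjusted p = 0.546).

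The receptor for Ccl2, Ccr2, was near the limit of detection and was well above background on 12 of 13 arrays. It averaged -4.14 ± 0.30 in HFHS livers and -4.24 ± 0.29 in pollutant livers, against -4.43 ± 0.17 in ST vehicle livers. Itgax, which encodes CD11c of dendritic cells and some macrophages, differed by 0.10 ± 0.26 in HFHS minus ST vehicle livers and 0.08 ± 0.26 in pollutant minus ST vehicle livers. Ptprc, the CD45 of all white blood cells, differed by 0.13 ± 0.14 and 0.08 ± 0.14. Its 95% intervals, -0.19 to 0.44 and -0.23 to 0.40, bound the size of a change in this general leukocyte gene.

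**Figure D3:**
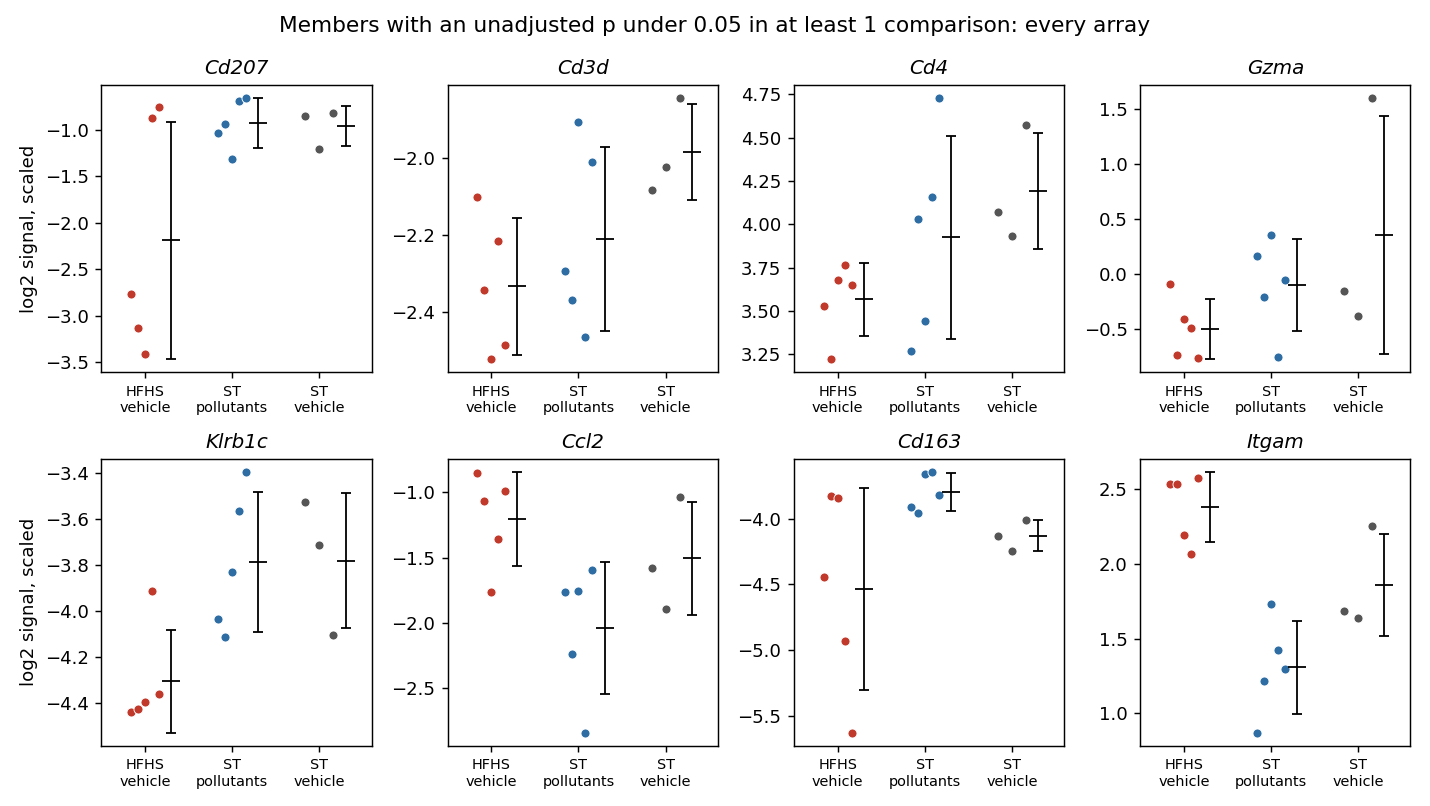
log2 signal relative to the array's 75th percentile (y axis) of the 8 members with an unadjusted p under 0.05 in at least 1 comparison. Each point is an array, and bars give mean ± SD of the 5 HFHS, 5 pollutant and 3 ST vehicle livers: Cd207 splits the HFHS livers, and a single ST vehicle liver is high for Gzma.

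MHC class II genes and their invariant chain were not called in any comparison. The genes H2-Aa, H2-Ab1 and H2-Eb1 encode the class II chains and Cd74 the invariant chain that guides them. Their log2 fold changes ran from -0.25 to -0.12 in HFHS minus ST vehicle livers, from -0.27 to -0.09 in pollutant minus ST vehicle livers and from -0.09 to 0.09 in HFHS minus pollutant livers, with adjusted p-values over 0.8 in all of these. H2-Eb1 had log2 signals of 3.72, 3.29, 2.89, 3.61 and 3.49 in HFHS livers and of 2.95, 3.46, 4.27, 2.66 and 4.09 in pollutant livers, against 3.62, 3.29 and 3.82 in ST vehicle livers. Pollutant replicates 3 and 5 were the highest and replicates 1 and 4 among the lowest, so the spread lies within the group. One spot of H2-Ab1 was marked an outlier in ST vehicle replicate 1, and its fit used 12 arrays.

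Among the dendritic cell genes Cd207 stood apart within the HFHS group. Cd207 encodes langerin, a lectin best known from Langerhans cells of the skin and also found on some dendritic cells. Its log2 signals were -2.77, -3.13, -3.42, -0.87 and -0.76 in HFHS livers and -1.03, -0.94, -1.32, -0.69 and -0.66 in pollutant livers, against -0.86, -1.21 and -0.82 in ST vehicle livers. HFHS replicates 1, 2 and 3 lay below every other array, and replicates 4 and 5 lay among the pollutant and ST vehicle livers. The difference was -1.23 ± 0.55 from ST vehicle livers (unadjusted p = 0.0462, adjusted p = 0.402) and -1.26 ± 0.48 from pollutant livers (adjusted p = 0.177). Within slides, HFHS minus pollutants was -1.74, -2.19 and -2.10 on slides 1 to 3 and -0.18 and -0.10 on slides 4 and 5. Without the 3 HFHS livers high in acinar markers, which leaves replicates 1 and 2, Cd207 was called in both comparisons, at -1.99 (adjusted p = 0.0439) and -2.02 (adjusted p = 0.0191). Replicate 3, low in Cd207, and replicates 4 and 5, not low, were all high in acinar markers. Replicates 1 and 2, low in Cd207, were low in acinar markers. The part of acinar content in the Cd207 split was not tested.

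Cd207 has 1 probe, at chr6:83621442-83621501 on the minus strand of mm9, and its first 30 bases are shown since a single probe carries the split.
Cd207: ccttggaggagcttgggttaaacgggtgag
Clec4f is its neighbour on the chromosome, and its own probe averaged 3.97 ± 0.18 in HFHS livers with no split. Cd209a, a lectin of dendritic cells, was well above background on 9 of 13 arrays, with 2 of 5 in HFHS livers, 5 of 5 in pollutant livers and 2 of 3 in ST vehicle livers, and it differed by -0.17 ± 0.16 in HFHS minus pollutant livers. Xcr1, the chemokine receptor of cross-presenting dendritic cells, was not well above background on any of the 13 arrays and was not tested.

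Of 9 T and NK cell genes, 8 had a negative log2 fold change in HFHS minus ST vehicle livers, with a median of -0.35. Of all 19516 genes 10644 were negative, with a median of -0.02. None of the 9 was called, and 4 (44.4%) had an unadjusted p under 0.05, beside 12.1% of all genes. Groups did not overlap for 3 of the 9 (33.3%), beside 9.15% of all genes. This is 1 of 6 roles, and no role was tested as a set. With normexp background correction 5 of the 9 were negative and the median was -0.03. In pollutant minus ST vehicle livers 8 of 9 were negative with a median of -0.20, none called and none at an unadjusted p under 0.05, and without ST vehicle replicate 3 the median was -0.05 with 6 of 9 negative. Both comparisons use the same 3 ST vehicle livers. In HFHS minus pollutant livers 6 of 9 were negative with a median of -0.15. Of all 19516 genes, 10119 were negative in pollutant minus ST vehicle livers and 9966 in HFHS minus pollutant livers.

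Cd3d, a chain of the T cell receptor complex, had log2 signals of -2.10, -2.34, -2.52, -2.22 and -2.49 in HFHS livers and of -2.29, -2.37, -1.91, -2.47 and -2.01 in pollutant livers, against -2.08, -2.03 and -1.85 in ST vehicle livers. The HFHS livers all lay below the ST vehicle livers, although the difference on slide 1 was only -0.02. The log2 difference was -0.35 ± 0.14 (unadjusted p = 0.0295, adjusted p = 0.333), and normexp background correction gave -0.03 (adjusted p = 0.959). Cd3g, a further chain, gave -0.43 ± 0.29 (adjusted p = 0.670), also without overlap, and Cd3e, another chain, gave -0.16 ± 0.19 (adjusted p = 0.894) with overlap. In HFHS minus pollutant livers Cd3g gave -0.24 ± 0.25 (adjusted p = 0.745), but without pollutant replicate 4, at -4.30 the lowest of all arrays, it was called at -0.52 (adjusted p = 0.0432). Lck, the kinase that carries the receptor's signal, gave -0.11 ± 0.11.

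Klrb1c, the NK1.1 antigen of NK cells in this mouse strain, had the smallest adjusted p of this role in both comparisons of HFHS livers. It had log2 signals of -4.44, -4.43, -4.39, -3.91 and -4.36 in HFHS livers and of -4.04, -4.11, -3.83, -3.57 and -3.39 in pollutant livers, against -3.53, -3.71 and -4.10 in ST vehicle livers. HFHS replicate 4 was the only HFHS liver inside the range of the other groups. The difference was -0.53 ± 0.19 from ST vehicle livers (adjusted p = 0.266) and -0.52 ± 0.16 from pollutant livers (adjusted p = 0.107). With normexp background correction both turned positive, at 0.25 and 0.26.

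Gzma, the granzyme of cytotoxic cells, was decided by a single ST vehicle liver. It had -0.10, -0.74, -0.41, -0.50 and -0.76 in HFHS livers and 0.16, -0.21, 0.35, -0.76 and -0.06 in pollutant livers, against -0.16, -0.38 and 1.60 in ST vehicle livers. The difference of HFHS minus ST vehicle was -0.85 ± 0.39 (adjusted p = 0.408), and without ST vehicle replicate 3 it was -0.23 (adjusted p = 0.871). Nkg7, a granule protein of NK and cytotoxic T cells, differed by -0.05 ± 0.18 in HFHS minus ST vehicle livers and -0.09 ± 0.18 in pollutant minus ST vehicle livers. Its other probe gave -0.38 ± 0.29 and -0.22 ± 0.29.

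Cd4, the coreceptor of helper T cells that some macrophages and dendritic cells also carry, was read by probes that differed. The last 30 bases of each are shown, minus strand of mm9, to identify the sites.
Cd4, chosen probe, chr6:124814711-124814770: acagaaaaataaaggctataaataaaatgc
Cd4, other probe, chr6:124817706-124817765: gcagtgtctactgagtgaaggtgataaggt
The chosen probe had log2 signals of 3.53, 3.22, 3.68, 3.77 and 3.65 in HFHS livers and of 3.27, 4.03, 3.44, 4.16 and 4.73 in pollutant livers, against 4.07, 3.93 and 4.57 in ST vehicle livers. All HFHS livers lay below all ST vehicle livers, and the difference was -0.62 ± 0.28 (unadjusted p = 0.0490, adjusted p = 0.411). The other probe gave -0.09 ± 0.23 (unadjusted p = 0.721), and the probes correlated at 0.19 over the arrays. Cd8a, the coreceptor of cytotoxic T cells, differed by 0.10 ± 0.49 in HFHS minus ST vehicle livers, a wide interval of -0.98 to 1.17.

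B cell and neutrophil genes gave no call. Cd79a and Cd79b, the signalling chains of the B cell receptor, differed by -0.04 ± 0.13 and -0.06 ± 0.24 in HFHS minus ST vehicle livers and by 0.11 ± 0.13 and 0.18 ± 0.24 in pollutant minus ST vehicle livers. Ms4a1, the CD20 antigen, differed by 0.34 ± 0.27 and 0.18 ± 0.27. The neutrophil calcium-binding protein S100a8 had log2 signals of -0.27, -0.33, -1.57, -1.41 and -1.55 in HFHS livers and of -0.95, -1.20, -1.24, -1.33 and -1.13 in pollutant livers, against -1.04, -1.48 and 0.10 in ST vehicle livers. HFHS replicates 1 and 2 and ST vehicle replicate 3 were high, on slides 1, 2 and 5, and the other 10 arrays lay between -1.57 and -0.95. The same 3 arrays were highest for its partner S100a9, at 1.51, 1.48 and 1.73. HFHS replicates 1 and 2 are also the HFHS livers with low acinar markers, at -2.89 and -3.07, and ST vehicle replicate 3 was low in them as its group was. The part of this split in the neutrophil values was not tested. The differences of HFHS minus ST vehicle livers were -0.22 ± 0.38 for S100a8 and -0.24 ± 0.37 for S100a9.

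The members varied more between livers of a group than most genes did. The median within-group SD was 0.34 over the 36 members and 0.20 over all 19516 genes, given as a description. It was 0.26 for the resident macrophage genes, 0.45 for the antigen presentation and dendritic cell genes and 0.83 for Cd207, the largest. Part of this spread was shared, mainly among the class II and the resident macrophage genes. Deviations from the group means were correlated over the arrays for all 630 pairs of tested members, with an exact two-sided permutation test within groups and Benjamini-Hochberg adjustment over the 630. The adjusted p of Pearson's r was under 0.05 for 36 pairs, and for 18 of them Spearman's rho passed as well. Of the 36 pairs 12 lay within the resident macrophage genes, 6 within the antigen presentation and dendritic cell genes, 1 each within the T and NK cell, B cell and neutrophil genes, none among the 15 pairs of recruitment and myeloid surface genes, and 15 between roles. Slides held 2 or 3 arrays each, too few for a value within a slide, so r was also computed after group and slide means were both removed.

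Class II genes moved together from liver to liver. H2-Aa and H2-Ab1 had r = 0.99 over 12 arrays (rho = 0.98, exact p = 3.47e-05 for both, the smallest these permutations can give, adjusted p = 0.00938 and 0.0109), 0.99 without the 2 arrays farthest from the median of H2-Aa and 1.00 after slide means were removed. Cd74 and H2-Eb1 had r = 0.96 over 13 arrays (rho = 0.97, exact p = 2.31e-05, adjusted p = 0.00938), 0.94 without the 2 farthest arrays and 0.96 after slide means were removed. All 6 pairs of these 4 genes passed. The kept probes of other genes most like H2-Eb1 included H2-DMa and H2-DMb1, which load peptides onto class II molecules, as a description and chosen after their values were seen.

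Resident macrophage genes also moved together. Of their 45 pairs 41 had a positive r, with a median of 0.71. Positive values were common among the other members too: between roles 394 of 515 pairs were positive, with a median of 0.27. Pairs drawn from all genes were not tested. Of the 45 resident pairs 12 passed, all among Adgre1, Clec4f, Cd5l, Marco, Vsig4, Timd4 and Csf1r. For 6 of these 12 Spearman's rho passed as well. Adgre1 and Clec4f had r = 0.97 (rho = 0.93, exact p = 8.10e-05, adjusted p = 0.00938), 0.91 without the 2 farthest arrays and 0.97 after slide means were removed. Cd163, Cd68 and Lyz2 were in none of the 12 pairs. In pollutant livers the median deviation of the 10 genes was 0.34, -0.18, 0.22, -0.44 and 0.09 in replicates 1 to 5, so replicate 4 was low and replicate 1 high. In the same livers the antigen presentation and dendritic cell genes had -0.43, -0.02, 0.63, -0.61 and 0.42, so the roles part in replicate 1.

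**Figure D4:**
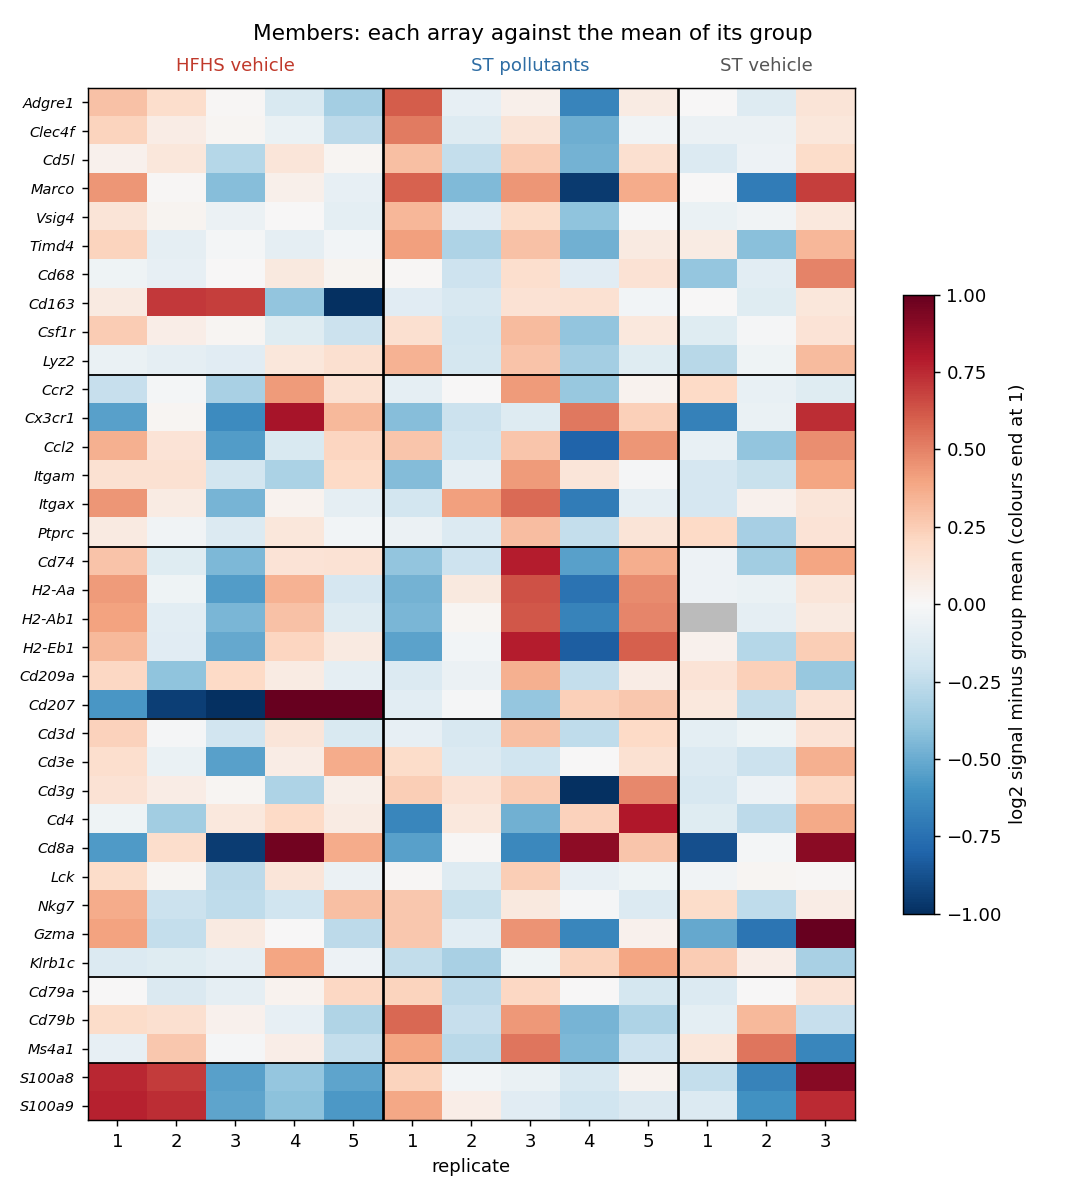
log2 signal of each tested member (rows, by role) on each array (columns, HFHS, pollutant and ST vehicle livers by replicate) minus the mean of its group. Red is above and blue below that mean, and grey is a missing spot: the class II genes share red in pollutant replicates 3 and 5, and of the 10 resident macrophage genes all but Cd163 lie above the mean in replicate 1, Cd68 by only 0.01, and below it in replicate 4.

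Ccl2 followed Marco. The pair had r = 0.92 (rho = 0.88, exact p = 5.32e-04, adjusted p = 0.0260), 0.85 without the 2 farthest arrays and 0.95 after slide means were removed. S100a8 and S100a9 had r = 0.98 (rho = 0.95, exact p = 3.59e-04, adjusted p = 0.0260) and 0.97 without the 2 farthest arrays. Cd3d followed Lck at r = 0.80 (rho = 0.83, exact p = 0.00188, adjusted p = 0.0371), although this fell to 0.61 without the 2 farthest arrays. The chains of the T cell receptor complex did not follow each other as closely, with r = 0.26 for Cd3d and Cd3e, 0.53 for Cd3d and Cd3g and 0.13 for Cd3e and Cd3g (exact p = 0.401, 0.123 and 0.616).

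Some members followed probes of unrelated genes. Cx3cr1, the fractalkine receptor of monocytes and resident macrophages, and Cd8a had r = 0.96 (rho = 0.95, exact p = 9.26e-05, adjusted p = 0.00938), 0.94 without the 2 farthest arrays and 0.89 after slide means were removed. Cx3cr1 had log2 signals of -2.54, -1.98, -2.63, -1.17 and -1.67 in HFHS livers and of -2.38, -2.17, -2.08, -1.43 and -1.72 in pollutant livers, against -2.70, -2.09 and -1.29 in ST vehicle livers. Replicate 4 was the highest of both groups of 5, and ST vehicle replicate 3 the highest of its group. With Cx3cr1, 342 other kept probes correlated above 0.9, and with Cd8a 264, while the median over 35 members was 5. Among the named genes nearest to Cx3cr1 were Slc32a1, a transporter of inhibitory neurons, and the keratin Krt6b, chosen after their values were seen. A further probe of Cx3cr1 correlated with the chosen probe at 0.27. For Nkg7 the other probe correlated at -0.01, and for Adgre1 the other probe correlated at 0.94. Itgam was followed by 38 probes above 0.9, the chosen probe of Nkg7 by 49 and that of Cd3e by 59. Among the named genes nearest to Nkg7 were Uncx and Vipr1, and to Cd3e Celf4 and Fgf8, chosen after their values were seen. Vsig4 was followed by 65 probes, with Clec4f among its nearest genes. What these shared patterns come from was not tested.

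**Figure D5:**
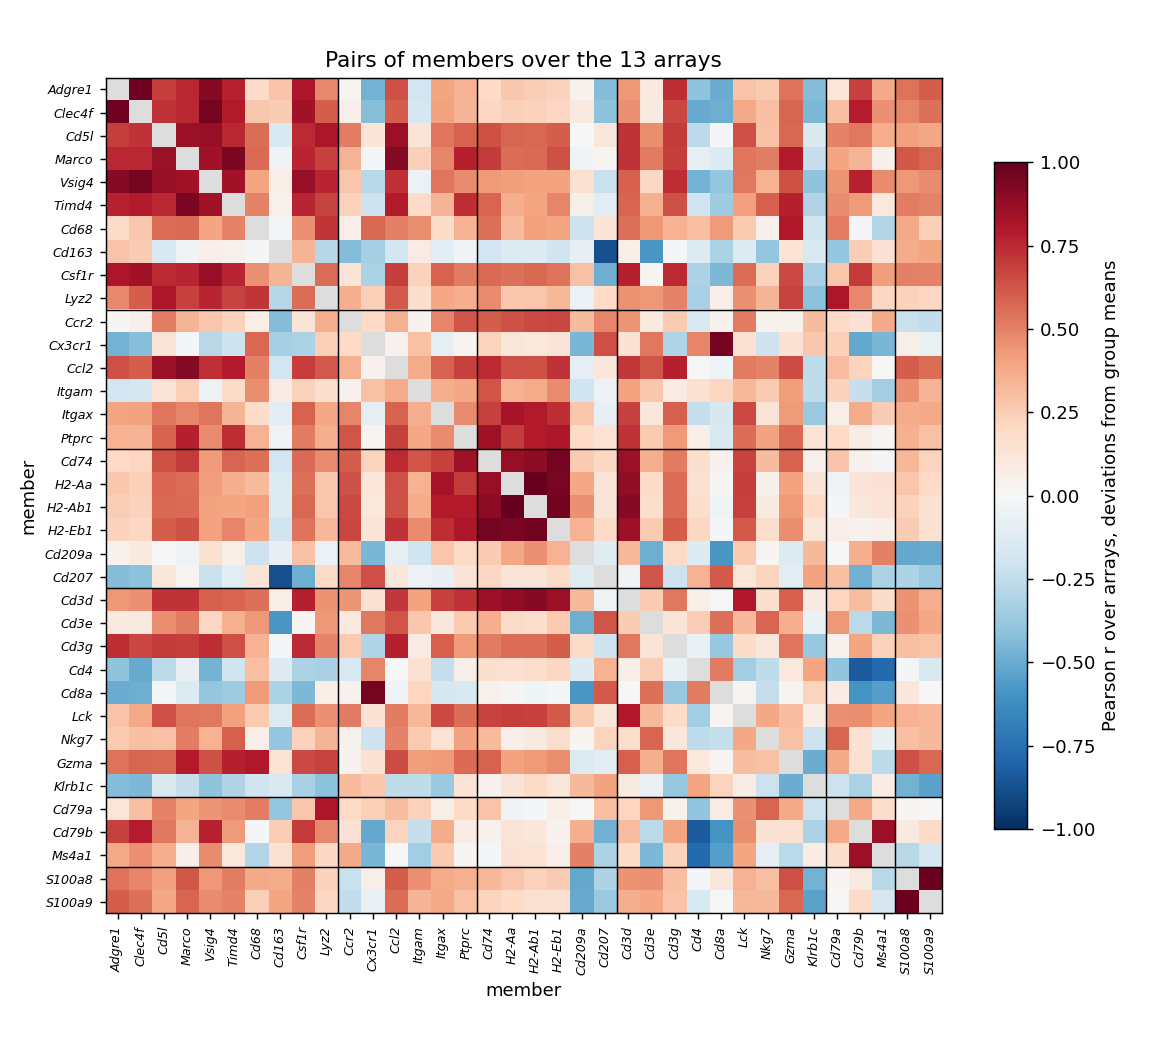
Pearson's r over the arrays, as deviations from the group means, for each pair of the 36 tested members (rows and columns, by role). Red is positive and blue negative: the class II genes and 7 resident macrophage genes form red blocks, and Cx3cr1 and Cd8a share a red cell at 0.96.

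Further marker genes of the same cell types gave no call either. Lists of 115 genes in 6 groups, of which 92 were tested, covered other macrophage, monocyte, dendritic, T and NK, B and plasma, and neutrophil genes. None was called in any of the 3 comparisons in limma. An unadjusted p under 0.05 was found for 5 of 92 in HFHS minus ST vehicle, beside 12.1% of all genes. It was found for 7 of 92 in pollutants minus ST vehicle, beside 12.1%, and for 9 of 92 in HFHS minus pollutants, beside 18.3%. The 25 other Kupffer cell and macrophage genes had a median log2 fold change of 0.04 in HFHS minus ST vehicle livers and 0.06 in pollutant minus ST vehicle livers, against -0.02 and -0.01 over all genes. The 10 other B and plasma cell genes tested had medians of -0.06 and -0.18. Of these 10, 3 were positive in each comparison, and 0 and 3 had an unadjusted p under 0.05 in limma. The 3 B cell members were all positive in pollutant minus ST vehicle livers, with a median of 0.18. The 22 other T and NK cell genes had medians of -0.16 and -0.05, and 5 and 9 of the 22 were positive, beside 8872 and 9397 of all 19516 genes. At an unadjusted p under 0.05 in limma stood 1 and 0 of these 22, beside 12.1% of all genes in each comparison.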

How the data were processed

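Labelled RNA of 13 livers was measured on one-colour Agilent arrays on 5 slides, with the slide taken from the file headers. The authors deposited the intensity of each spot, read with Agilent Feature Extraction 11.5.1.1 per the file headers. A deposited table of log2 values, for which the submitters' processing notes name limma, served as an alternative only. The processed signal, without control spots and outlier spots, was log2-transformed, averaged per probe and set relative to the array's 75th percentile. A probe was kept if some group had it well above background on all its arrays (25030 of 39429). limma 3.58.1 in R 4.3.3 fitted the 3 groups, with variances shared, and gave two-sided tests and 95% intervals. Permutations were enumerated in Python 3.11.15, and scipy 1.17.1 gave the ranks and the Benjamini-Hochberg adjustment over the pairs. On simulated data with 2-fold changes, 76.0%, 68.0% and 78.5% of changed genes were called in HFHS minus ST vehicle, pollutants minus ST vehicle and HFHS minus pollutants; at 1.5-fold, 30.5%, 25.0% and 39.5%. The changed genes were drawn from all tested genes, and the simulated noise was independent between arrays and genes, without a slide effect. The median within-group SD was 0.34 for the members and 0.20 for all genes. These shares may therefore overstate what could be detected in the members. The number of arrays limits the precision. All members are named; of the 6 further lists the called genes were to be named. Members and lists were chosen with earlier results of these data known.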

Additional observations from a re-analysis of the deposited data

Results flagged for a closer look

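A liver stood far from the others of its group (the gap to the nearest liver was over 0.71 of the group's whole range, Dixon's 95% limit for 5 samples) in 5 of 74 member groups examined; chance flags about 1 in 20. Cd5l was 5.11 in HFHS replicate 3, against 5.42 to 5.52 in the other HFHS livers. Timd4 was -0.62 in HFHS replicate 1, against -0.94 to -0.86. Klrb1c was -3.91 in HFHS replicate 4, against -4.44 to -4.36. Cd3g was -3.72 in HFHS replicate 4, against -3.39 to -3.26, and -4.30 in ST pollutants replicate 4, against -3.03 to -2.70. Without that pollutant liver Cd3g was called in HFHS against pollutant livers.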

How the results depend on the processing

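Member calls, median fold changes and fold changes of single members were recomputed under up to 27 settings. Correlations, within-group SDs and the further lists were not run through these settings. The settings were other background correction, scaling, filters and probe rules, the authors' table, and slide or replicate as a block. Single livers, the arrays of slide 1 or the 3 HFHS livers high in acinar markers were also left out. A further setting fitted only the 2 groups compared. Leaving out probes with CA or GT runs was added after seeing the data. No member was called in pollutants minus ST vehicle under any of these settings. In HFHS minus ST vehicle the count was 0 throughout, apart from 1 (Cd207) without HFHS replicates 3, 4 and 5. In HFHS minus pollutants it was 1 (Itgam) in the main analysis, 0 with normexp (Itgam 0.94, adjusted p = 0.0615), with the mean of all kept probes (0.45, 0.159), without slide 1 (0.93, 0.0703) and without CA or GT probes (0.24, 0.830), 2 without HFHS replicates 3, 4 and 5 (Itgam and Cd207), and 1 to 2 when single livers were left out, with 2 (Itgam, and Cd3g at -0.52, adjusted p = 0.0432) without ST pollutants replicate 4. The cause was not tested, except that the probe settings remove or average the CA probe. The median log2 fold change ranged from -0.18 to 0.03, -0.07 to 0.08 and -0.12 to 0.06 in the 3 comparisons. Signs turned with normexp for Klrb1c (0.25 and 0.26) and for Cd163 and Cd3g (0.25 and 0.33 in HFHS minus pollutants), and for Itgam without CA or GT probes (-0.25 in HFHS minus ST vehicle). With the replicate block, the counts were 0, 0 and 1 and the medians -0.05, -0.06 and -0.01, and Itgam had 1.07 (adjusted p = 0.0207); it changed no call. The numbers were not taken as pairs, since same-numbered livers did not all correlate above 0.1. Their correlations were -0.15 to 0.56, -0.17 to 0.42 and -0.02 to 0.52. The values -0.15 and -0.17 belong to ST vehicle replicate 3, which was on another slide than its same-numbered livers. Same-numbered livers on the same slide had -0.02 to 0.56. With slide as a block no call changed: in HFHS minus pollutants limma gave Itgam 1.07 (adjusted p = 0.0192) and Ccl2 0.83 (adjusted p = 0.0547). Signals near background limit Ccr2, Cd163, Cd209a and Xcr1.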
